A study of Mus musculus with 24 samples.

Results

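The genes described here are the enzymes that make cholesterol and fatty acids, together with the factors that control them and a carrier of cholesterol, in the ventral tegmental area (VTA), the midbrain region that holds dopamine neurons of the reward system. A list of 32 genes was matched by symbol to the probe sets of the array that name a single gene, and where several matched, the brightest on average stood for the gene. Of these, 31 were measured: 17 of 18 sterol enzymes, 5 of 5 regulators and transport genes, and 9 of 9 fatty acid enzymes. Acat2, which makes the acetoacetyl-CoA that enters the sterol pathway, was not analysed here. The table holds 23410 transcripts with a gene, all of which were tested together.

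mRNA was measured in VTA punches from 24 untreated male C57BL/6N mice, 10 to 12 weeks old, kept on standard chow under 12 h of light and 12 h of dark, with 1 array per mouse. There were 4 mice at each of 6 times of day, labelled ZT0, ZT4, ZT8, ZT12, ZT16 and ZT20, where Zeitgeber time (ZT) counts the hours from lights on. All mice were wild type, so the groups differed in the time of day at which tissue was taken. ZT4 and ZT8 lie within the light phase, when mice mostly rest, and are called mid-light below, while ZT16 and ZT20 lie within the dark phase, when mice are active, and are called mid-dark. Samples at both transitions, ZT0 and ZT12, entered the fits but not this comparison. A punch mixes neurons and glia, so fewer cells of a type and less RNA per cell cannot be told apart.

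Brain cholesterol is made within the brain, because the blood-brain barrier keeps lipoproteins of the blood out, and much of it goes into myelin, the membrane that oligodendrocytes wrap around axons. Acetyl-CoA is built into mevalonate and isoprenoids, then into squalene, which is closed to lanosterol and trimmed to cholesterol. SREBP-2, the product of Srebf2, switches on sterol genes when membranes are low in sterol, after Scap has escorted it from the endoplasmic reticulum, and Insig1 holds that complex back. SREBP-1, the product of Srebf1, acts more on the fatty acid enzymes.

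Values are log2 expression, in which a difference of 1 is a doubling of signal. Array medians ranged from 6.71 to 6.79. ZT0 replicate 4 stood apart from the other arrays, with a median correlation of 0.970 where the next lowest was 0.9885. It was not in the means of mid-light or mid-dark, but it entered the spread that all arrays share in the fit. Without it, 7 members passed an unadjusted p under 0.05 from limma in that comparison, against 6 with it. The 8 dopamine neuron markers checked were all measured, with mean levels of 5.94 to 9.78 (Th 7.76, Slc6a3 8.48).

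Promoters were read first for letters that known lipid and clock regulators bind. RefSeq windows of 300 bases (250 before to 50 after the start, GRCm38.p6) were found for 24 of the 31 genes, 30 windows in all, 4 genes having several. Each motif was searched on both strands, and a match describes letters only. CCAAT, the box bound by NF-Y, which works with SREBPs on sterol promoters, was present in 14 of 14 sterol enzymes, 3 of 4 regulators and 3 of 6 fatty acid enzymes, against 42.3% of 17492 protein-coding genes and 37.4% of 32851 windows. The GC box GGGCGG was found in 13 of 14 sterol enzymes, 4 of 4 regulators and 2 of 6 fatty acid enzymes (49.2% of coding genes, 35.7% of windows). The sterol element TCACNCCAC occurred in 1 gene, Hmgcs1 (1.41% of coding genes, 1.24% of windows). Among clock motifs, the E-box CACGTG stood in 3 of 14 sterol enzymes, 2 of 4 regulators and 1 of 6 fatty acid enzymes (8.91% of coding genes, 7.15% of windows), the ROR element AGGTCA in 2, 1 and 2 (16.7% and 16.3%), and the D-box TTATGNAA in none (3.66% and 3.38%). These shares were not tested.

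The promoters of 3 genes are shown, chosen after motifs and expression had been seen. Hmgcs1 is the only one of the 24 genes with the sterol element, Msmo1 had the smallest p between mid-light and mid-dark, and Insig1 had the smallest p among the regulators and holds an E-box. Capitals mark CCAAT in either orientation (ATTGG on the other strand), the sterol element and the E-box. Hmgcs1 lies on the plus strand at chr13:119690101-119690400, with TCACCCCAC beginning 137 bases before the start and 4 CCAAT boxes. The Msmo1 window is on the minus strand at chr8:64733529-64733828, with 3 CCAAT boxes beginning 160, 96 and 55 bases before the start. The Insig1 window is on the plus strand at chr5:28071162-28071461, with 1 CCAAT box and a CACGTG beginning 101 bases before the start, whose first letters are also the last of an AGGTCA.
Hmgcs1: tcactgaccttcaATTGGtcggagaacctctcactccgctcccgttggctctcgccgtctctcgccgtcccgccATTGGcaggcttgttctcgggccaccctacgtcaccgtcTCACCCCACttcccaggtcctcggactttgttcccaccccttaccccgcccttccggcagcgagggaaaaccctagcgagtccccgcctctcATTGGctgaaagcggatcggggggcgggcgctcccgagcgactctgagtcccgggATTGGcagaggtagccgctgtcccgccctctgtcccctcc
Msmo1: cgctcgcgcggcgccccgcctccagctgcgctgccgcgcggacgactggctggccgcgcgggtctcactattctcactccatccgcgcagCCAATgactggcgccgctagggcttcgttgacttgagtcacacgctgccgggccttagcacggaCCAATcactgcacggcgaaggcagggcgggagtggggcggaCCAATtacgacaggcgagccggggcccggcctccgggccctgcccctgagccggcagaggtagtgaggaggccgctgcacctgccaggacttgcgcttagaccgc
Insig1: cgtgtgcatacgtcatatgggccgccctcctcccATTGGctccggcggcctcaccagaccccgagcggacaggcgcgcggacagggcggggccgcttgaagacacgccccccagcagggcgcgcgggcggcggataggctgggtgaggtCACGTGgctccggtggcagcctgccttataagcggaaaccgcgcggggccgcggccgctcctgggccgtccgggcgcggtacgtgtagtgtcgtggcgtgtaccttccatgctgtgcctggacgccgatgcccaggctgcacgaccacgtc

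Most sterol enzymes had slightly higher mean levels in mid-light than in mid-dark, and no single gene passed the test after adjustment. The largest difference, that of Msmo1, was 0.21 on the log2 scale (standard error 0.06), where mice of a group had SDs of 0.12 in mid-light and 0.15 in mid-dark. A contrast of the time points in limma called 0 of 31 genes at an adjusted p under 0.05, and 0 of 23410 transcripts (0%) in either direction. At an unadjusted p under 0.05, 6 of the 31 genes had a higher mean in mid-light (background 3.66%) and 0 a lower one (background 4.03%). These 6 were the sterol enzymes Msmo1, Sqle, Mvd, Cyp51 and Hmgcs1, and Insig1. The count depends on the probe set taken, as unused second probe sets of Idi1 and Fdft1 also had an unadjusted p under 0.05 in limma. After a further quantile normalization, which pulls the arrays to 1 distribution, 4 genes passed, without Hmgcs1 (0.09, unadjusted p = 0.1245 from limma) and Insig1 (0.10, unadjusted p = 0.137 from limma). Without single arrays 3 (without ZT8 replicate 1 or ZT20 replicate 4) to 8 (without ZT8 replicate 3) passed. The difference was above 0 in 15 of 17 sterol enzymes (88.2%), 2 of 5 regulators and transport genes and 8 of 9 fatty acid enzymes (88.9%), where 49.8% of all transcripts were above 0. The median difference was 0.08 over sterol enzymes, 0.04 over fatty acid enzymes and −0.01 over regulators and transport genes, against −0.0003 over all transcripts. After that normalization the median of the fatty acid enzymes was −0.002 and that of the sterol enzymes 0.09. For none of the 31 genes were the mid-light mice all above or all below the mid-dark mice (background 0.0171% higher and 0.0256% lower).

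**Figure D1:**
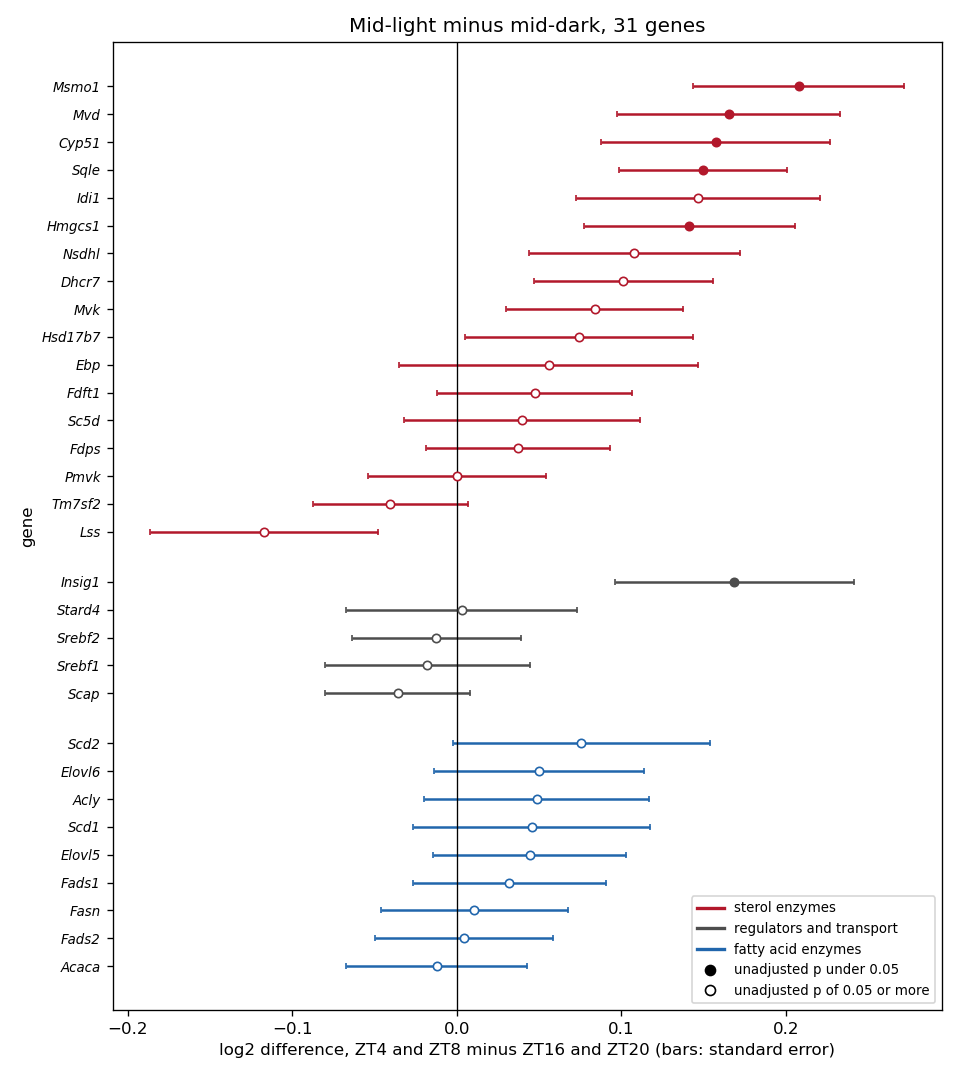
Difference in log2 expression between mid-light (ZT4 and ZT8) and mid-dark (ZT16 and ZT20) for the 31 genes (x axis, points) with its standard error (bars), by gene (y axis) and role (colour), where filled points have an unadjusted p under 0.05. Sterol enzymes reach 0.21 (Msmo1) and fatty acid enzymes 0.08 (Scd2), and Lss lies at −0.12.

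In the first stretch of the pathway, which builds isoprenoid units, Hmgcs1, Mvd and Idi1 had the larger differences. Hmgcs1, the synthase that makes HMG-CoA, had a lowest, median and highest level of 8.50, 8.75 and 8.90 in the 8 mid-light mice, against 8.47, 8.56 and 8.78 in the 8 mid-dark mice. The groups overlapped, with 3 mid-light mice above all mid-dark mice. The difference was 0.14 (standard error 0.06, unadjusted p = 0.0370, adjusted p = 0.614 from limma). Mvd, the decarboxylase that yields isopentenyl diphosphate, ranged from 6.54 to 6.90 (median 6.75) in mid-light mice and from 6.43 to 6.74 (median 6.54) in mid-dark mice. Here 4 mid-light mice were above all mid-dark mice and 4 mid-dark mice below all mid-light mice. Its difference was 0.17 (standard error 0.07, unadjusted p = 0.0217, adjusted p = 0.581 from limma). The probe set taken for Idi1, the isomerase of the next step, ranged from 6.44 to 6.96 (median 6.79) in mid-light mice and from 6.50 to 6.84 (median 6.60) in mid-dark mice. The lowest of all 16 values was a mid-light mouse, and the difference was 0.15 (standard error 0.07, unadjusted p = 0.0582, adjusted p = 0.657 from limma). A second probe set naming Idi1 gave 0.18 (standard error 0.07, unadjusted p = 0.0192, adjusted p = 0.564 from limma). The annotation used here names the same gene for both without a position, and the one taken may lie in another copy of the sequence, so its values may not be those of the main gene. Mvk and Pmvk, the kinases between Hmgcs1 and Mvd, had differences of 0.08 and 0.00, and Fdps, which joins isoprenoid units to farnesyl diphosphate, had 0.04.

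From squalene onward, Msmo1, Sqle and Cyp51 stood at one end and Lss at the other. Sqle, the epoxidase that oxidises squalene and a rate-limiting step, had a lowest, median and highest level of 8.01, 8.20 and 8.34 in mid-light mice, against 7.94, 8.05 and 8.15 in mid-dark mice. Although the groups overlapped, 5 of 8 mid-light mice were above all mid-dark mice. The difference was 0.15 (standard error 0.05, unadjusted p = 0.00681, adjusted p = 0.505 from limma). Msmo1, a methyl oxidase that trims sterols after lanosterol, had 8.29, 8.46 and 8.67 in mid-light mice, against 8.09, 8.20 and 8.48 in mid-dark mice. Of the mid-dark mice 5 were below all mid-light mice, and 1, at ZT20, was above their median. Its difference of 0.21 had an unadjusted p of 0.00333 and an adjusted p of 0.482 from limma. Cyp51, the demethylase of lanosterol, ranged from 7.67 to 8.07 (median 7.92) in mid-light mice and from 7.52 to 7.90 (median 7.75) in mid-dark mice. That difference was 0.16 (standard error 0.07, unadjusted p = 0.0319, adjusted p = 0.599 from limma), with 4 mid-light mice above all mid-dark mice.

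Dhcr7, the reductase of the last step to cholesterol, had 7.31, 7.37 and 7.60 in mid-light mice and 7.24, 7.29 and 7.39 in mid-dark mice (lowest, median and highest). Of the mid-dark mice 7 were below all mid-light mice, and 1 reached into their range, with a difference of 0.10 (standard error 0.05, adjusted p = 0.683 from limma). Lss, which closes squalene epoxide to lanosterol right after Sqle acts, differed the other way. It ranged from 6.66 to 6.96 (median 6.79) in mid-light mice and from 6.71 to 7.21 (median 6.88) in mid-dark mice, a difference of −0.12 (standard error 0.07, adjusted p = 0.716 from limma). The 7.21 is a single mouse at ZT16, and without it the difference was −0.07. Tm7sf2, a sterol reductase, was the only other sterol enzyme below 0 (−0.04). The remaining enzymes of this stretch had differences of 0.04 to 0.11: Fdft1 (0.05), which makes squalene, Nsdhl (0.11) and Hsd17b7 (0.07), which act with Msmo1 to remove methyl groups, and the isomerase Ebp (0.06) and the desaturase Sc5d (0.04). Fdft1 had a second probe set, which gave 0.13 (standard error 0.05, unadjusted p = 0.0293, adjusted p = 0.596 from limma).

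**Figure D2:**
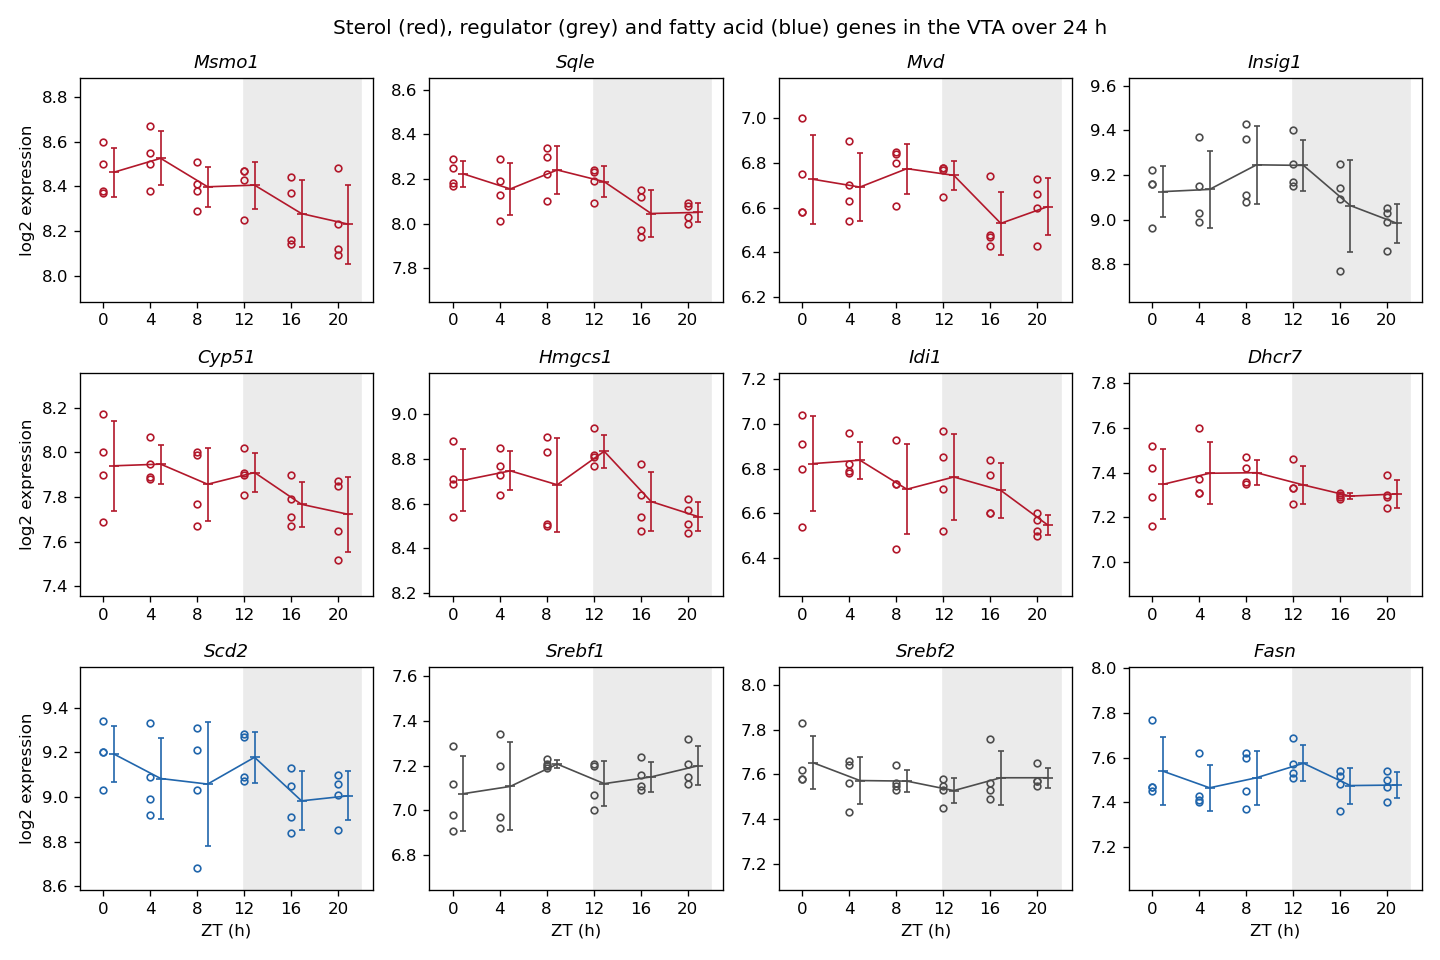
Log2 expression (y axis, a span of 1 in every panel) of 12 genes by ZT (x axis, in h), with each circle 1 mouse, the line and bars the mean ± SD of 4 mice and the dark phase shaded. Msmo1 averages 8.53 at ZT4 and 8.23 at ZT20, while Srebf2 stays between 7.53 and 7.65.

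Of the regulators, Insig1 alone had an unadjusted p under 0.05. Insig1 had a lowest, median and highest level of 8.99, 9.13 and 9.43 in mid-light mice, against 8.77, 9.04 and 9.25 in mid-dark mice. The groups overlapped between 8.99 and 9.25, with 3 mid-light mice above all mid-dark mice and 2 mid-dark mice below all mid-light mice. The difference was 0.17 (standard error 0.07, unadjusted p = 0.0284, adjusted p = 0.596 from limma). It was 0.10 after a further quantile normalization (unadjusted p = 0.137 from limma). Srebf2 had 7.43, 7.56 and 7.66 in mid-light mice and 7.49, 7.56 and 7.76 in mid-dark mice, so the medians were the same to 2 decimals. Srebf1 had 6.92, 7.20 and 7.34 in mid-light mice and 7.09, 7.16 and 7.32 in mid-dark mice. The differences of both SREBP genes were close to 0, −0.01 for Srebf2 (standard error 0.05, adjusted p = 0.972 from limma) and −0.02 for Srebf1 (standard error 0.06, adjusted p = 0.968 from limma). Scap differed by −0.04, and Stard4, a cholesterol carrier of the cytosol, by 0.00.

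Fatty acid enzymes showed differences of −0.01 to 0.08. The largest in this fit was that of Scd2, the main desaturase of brain that puts a double bond into saturated fatty acids. Scd2 ranged from 8.68 to 9.33 (median 9.06) in mid-light mice and from 8.84 to 9.13 (median 9.03) in mid-dark mice, so both the lowest and the highest value were from mid-light mice. The difference was 0.08 (standard error 0.08, adjusted p = 0.864 from limma). It was 0.02 after a further quantile normalization, where Acly had 0.04, and without single arrays it ranged from 0.03 (without ZT8 replicate 2) to 0.14 (without ZT8 replicate 4). Its relative Scd1 had 0.05. Acly (0.05), which makes cytosolic acetyl-CoA for both pathways, Acaca (−0.01), which makes malonyl-CoA, and Fasn (0.01), the synthase itself, lay within 1 standard error of 0. Elovl5 (0.04) and Elovl6 (0.05), which lengthen the chains, and Fads1 (0.03) and Fads2 (0.00), which desaturate polyunsaturated fatty acids, did too. The signs of Scd1, Elovl5, Elovl6 and Fads2 turned with a further quantile normalization (−0.0284, −0.00236, −0.00198 and −0.0266). The median difference of the sterol enzymes exceeded that of the fatty acid enzymes by 0.04. Within time points, the mean sterol level minus the mean fatty acid level had an SD of 0.07 between mice. That SD describes single mice and is not the error of the 0.04, which was not tested. After a further quantile normalization the excess of the sterol median was 0.09. It was 0.06 to 0.07 without ZT4 replicate 4, ZT8 replicate 2, ZT16 replicate 1, ZT16 replicate 2 or ZT20 replicate 4, and 0.03 to 0.05 without any other 1 array.

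The mean level of the sterol enzymes in each mouse ranged from 7.30 to 7.51 (median 7.42) in mid-light mice and from 7.26 to 7.43 (median 7.34) in mid-dark mice, so the ranges overlapped. For the fatty acid enzymes they were 8.27 to 8.55 (median 8.40) in mid-light mice and 8.26 to 8.50 (median 8.38) in mid-dark mice. Over the day the sterol enzymes averaged 7.42, 7.44, 7.40, 7.45, 7.37 and 7.32 from ZT0 to ZT20 in steps of 4 h, with SDs of 0.04 to 0.08 (n = 4 mice each). The 4 times up to lights off lay close together, ZT20 had the lowest mean, and ZT16 was less than 1 SD below ZT8. Sterol enzymes had their lowest mean at ZT20 in 10 of 17 genes and at ZT16 in 5, together 88.2% where all transcripts gave 37.1%. Their highest mean fell at ZT12 in 7 and at ZT4 in 5. The times of the lowest means follow largely from the differences above, come from the same arrays and add no separate evidence. Most oligodendrocyte markers, given below, also had their lowest mean at ZT16 or ZT20. Fatty acid enzymes averaged 8.45, 8.43, 8.39, 8.45, 8.36 and 8.40 at the same times, with the lowest mean at ZT16 in 5 of 9 genes and at ZT20 in 1.

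**Figure D3:**
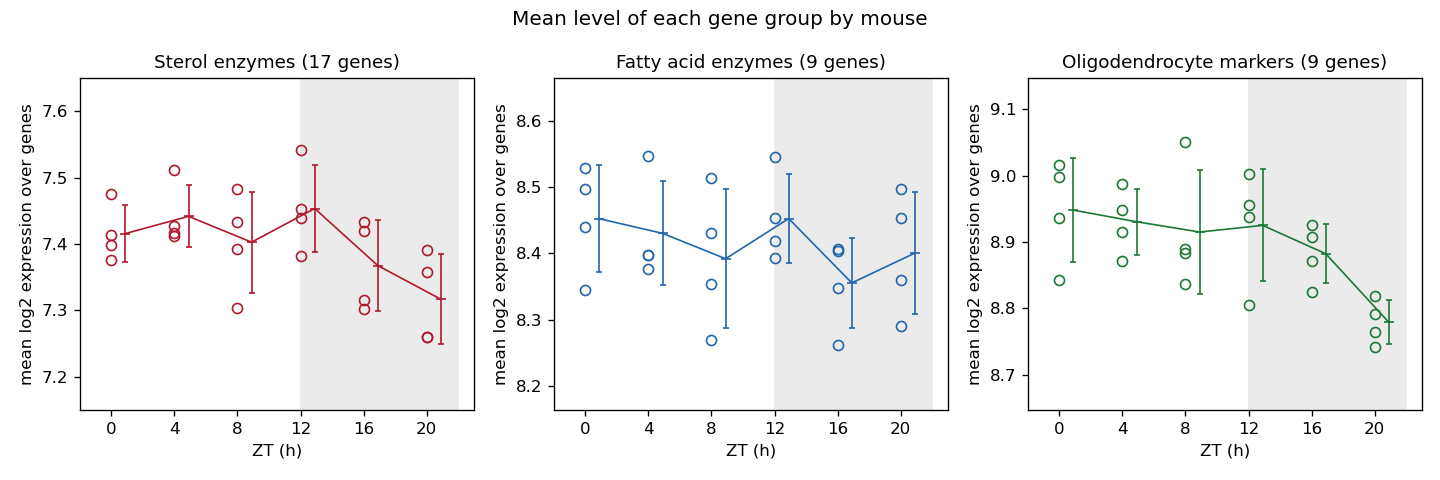
Mean log2 expression (y axis, a span of 0.5) over sterol enzymes, fatty acid enzymes and oligodendrocyte markers in each mouse (circles) by ZT (x axis, in h), with the mean ± SD of 4 mice and the dark phase shaded. Sterol enzymes average 7.45 at ZT12 and 7.32 at ZT20, and oligodendrocyte markers 8.93 at ZT12 and 8.78 at ZT20.

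Markers of oligodendrocytes were checked beside these values because those cells make much of the sterol of the brain. Of 10 fixed markers 9 were measured, all with mean levels of 7.12 or more, and 6 had a higher mean in mid-light, with a median difference of 0.09. Their mean per mouse ranged from 8.84 to 9.05 (median 8.90) in mid-light mice and from 8.74 to 8.93 (median 8.82) in mid-dark mice. Opalin, a membrane protein of myelinating oligodendrocytes, differed by 0.39 (standard error 0.08, unadjusted p = 8.67e-05, adjusted p = 0.203 from limma), Mag by 0.14 and Mog by 0.12, while the abundant myelin genes Mbp and Mobp differed by 0.01 and −0.01. At an unadjusted p under 0.05 in limma, 3 of the 9 (33.3%) had a higher mean in mid-light, beside 29.4% of sterol enzymes (background 3.66%). The lowest mean fell at ZT20 in Mog, Mag, Mobp, Cnp, Opalin and Aspa and at ZT16 in Cldn11. In Mbp it fell at ZT4 and in Ermn at ZT12. Markers of astrocytes had a median difference of −0.01 (3 of 8 above 0), of microglia 0.04 (4 of 7), of endothelium 0.04 (4 of 5) and of dopamine neurons 0.03 (6 of 8). The part of any of these in the sterol values was not tested.

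Splitting the comparison by hour put most sterol enzymes above 0 at both times, and most fatty acid enzymes above 0 at the earlier one. For ZT4 minus ZT16, 14 of 17 sterol enzymes (median 0.10) and 7 of 9 fatty acid enzymes (median 0.10) were above 0, where 50.4% of all transcripts were. For ZT8 minus ZT20, these were 14 of 17 (median 0.10) and 4 of 9 (median −0.02), with 49.7% of all transcripts. Sqle had 8.22, 8.34, 8.10 and 8.30 at ZT8, against 8.09, 8.0, 8.08 and 8.03 at ZT20, with no overlap and a difference of 0.19 (standard error 0.07, unadjusted p = 0.0143 from limma). Insig1 did not overlap either, with 9.36, 9.43, 9.08 and 9.11 at ZT8, against 9.03, 8.86, 9.05 and 8.99 at ZT20. Its difference at these hours was 0.26 (standard error 0.10), and 0.07 (standard error 0.10) between ZT4 and ZT16. They were 2 of 31 genes without overlap in this direction at these hours (background 1.79%). Between ZT4 and ZT16 there was 1 (background 1.59%), Dhcr7, whose lowest value at ZT4 and highest at ZT16 were both 7.31 to 2 decimals. Lss was the reverse case (1 of 31, background 1.78%), with 6.66, 6.81, 6.77 and 6.81 at ZT4, all below 6.82, 6.87, 6.88 and 7.21 at ZT16. None of the 31 genes was called at either hour (background 0% for ZT4 and ZT16, and 0.00427% for ZT8 and ZT20). At an unadjusted p under 0.05, 1 gene (Msmo1) had a higher mean at ZT4 than at ZT16 (background 2.13%), and 2 (Sqle and Insig1) at ZT8 than at ZT20 (background 2.03%). A test of whether the differences at both hours were unequal called 0 of 31 genes in limma (0% of transcripts), and at an unadjusted p under 0.05 0 of 31 (background 2.47%), with Fads2 the smallest at 0.0711 (0.11 at the earlier hour and −0.10 at the later one). A difference between hours was thus not shown for the fatty acid enzymes.

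**Figure D4:**
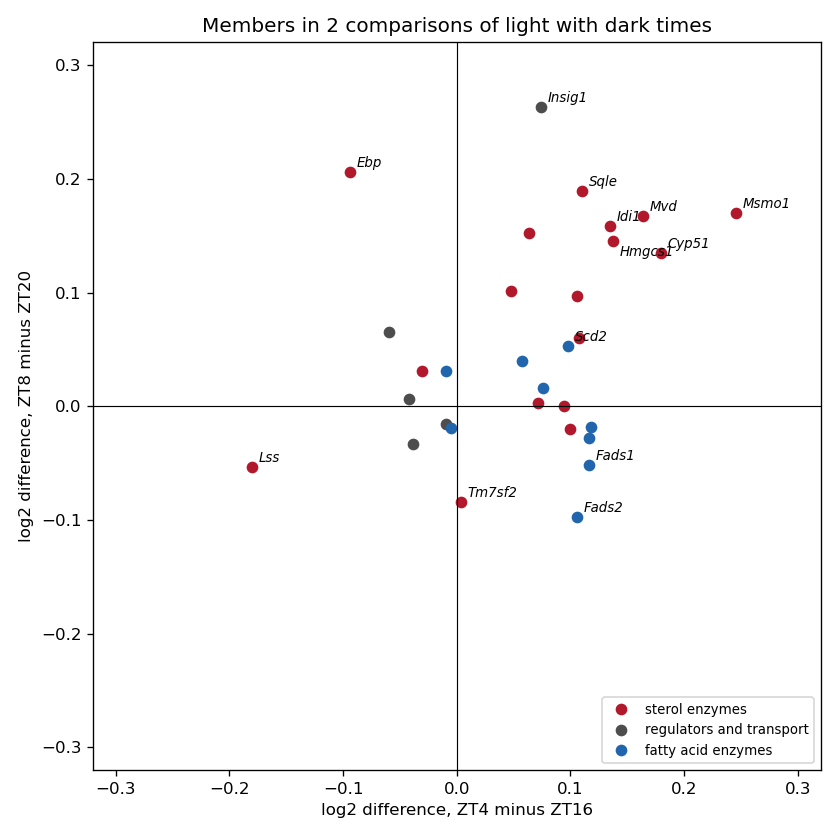
Log2 difference of ZT8 minus ZT20 (y axis) against ZT4 minus ZT16 (x axis) for each of the 31 genes (points, coloured by role). Msmo1, Mvd, Cyp51, Hmgcs1, Idi1 and Sqle lie at 0.11 or more on both axes, and Fads2 at 0.11 and −0.10.

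As 24-h rhythms, none of these genes was called. A cosine curve fitted with limma passed an adjusted p under 0.05 for 0 of 31 genes and for 7 of 23410 transcripts (0.0299%). At an unadjusted p under 0.05, 5 of the 31 passed (background 8.91%), namely Msmo1, Lss, Insig1, Sqle and Elovl6. The curve of Msmo1 had its crest at ZT 5.05 ± 1.16 h (SE) and a crest 1.19 times its trough (adjusted p = 0.421, the smallest of the 31), and that of Sqle a crest at ZT 6.10 ± 1.34 h and 1.13 times its trough. Insig1 crested later, at ZT 8.45 ± 1.29 h (1.18 times), Elovl6 near lights on at ZT 1.08 ± 1.36 h (1.15 times), and Lss in the dark phase at ZT 14.3 ± 1.26 h (1.18 times). Fitted peaks fell from ZT2 to ZT10 in 14 of 17 sterol enzymes (82.4%) and 4 of 9 fatty acid enzymes, where 33.1% of all transcripts peaked there. Several of these peaks were poorly placed, with an SE of 5.16 h for Sc5d, 5.22 h for Fdft1, 5.93 h for Fdps and 6.53 h for Ebp. These peak times come from the same arrays as the differences above and add no separate evidence.

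Across the 24 mice, several of the chosen pairs of sterol genes varied together, and their r stayed positive within time points. How often other pairs of genes reach such values was not counted. In 10 pairs of genes, two-sided permutation tests (100000 resamples) with Benjamini-Hochberg adjustment over the pairs were run on the levels. Mice were shuffled across time points, so each p includes any difference between times of day that both genes share. The r within time points was not tested. The pairs were chosen with earlier results of these data known, so these p are not independent support. Hmgcs1 and Insig1 had the closest relation (Pearson r = 0.708, p = 0.0001, adjusted p = 0.001, Spearman rho = 0.738, p = 7e-05, adjusted p = 0.0007, permutation tests). The r was 0.664 without the 2 mice farthest from the median of Hmgcs1 and 0.640 for deviations from the means of the time points. Sqle with Insig1 gave r = 0.673 (permutation p = 0.00036, adjusted p = 0.0018, rho = 0.626, p = 0.00139, adjusted p = 0.00445), 0.616 without the 2 farthest mice and 0.575 within time points. Hmgcs1 with Idi1 gave r = 0.648 (permutation p = 0.00097, adjusted p = 0.00323, rho = 0.649, p = 0.00082, adjusted p = 0.0041), 0.584 without the 2 farthest and 0.582 within time points. For Sqle with Hmgcs1 r was 0.562 (permutation p = 0.00486, adjusted p = 0.0109, rho = 0.542, p = 0.00693, adjusted p = 0.0139), 0.467 without the 2 farthest and 0.458 within time points. Fasn with Scd2, a pair of fatty acid enzymes, had r = 0.550 (permutation p = 0.00545, adjusted p = 0.0109, rho = 0.616, p = 0.00178, adjusted p = 0.00445), 0.661 without the 2 farthest and 0.482 within time points. Sqle with Idi1 gave r = 0.482 (permutation p = 0.0179, adjusted p = 0.0298), but rho = 0.443 (p = 0.0314) missed the threshold after adjustment (adjusted p = 0.0524), and r was 0.433 without the 2 farthest and 0.398 within time points. Both pairs with Idi1 rest on the probe set that may lie in another copy of the sequence. Its second probe set was not run in these pairs.

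The 4 pairs that joined the pathways, or an SREBP gene with an enzyme, did not pass, and differences between pairs were not tested. Sqle had r = 0.318 with Fasn, 0.330 with Scd2 and 0.337 with Srebf2, and Srebf1 had 0.321 with Fasn (adjusted p = 0.130 for each, permutation tests, rho of 0.2 to 0.357 with adjusted p of 0.124 to 0.346). Without the 2 farthest mice these were 0.234 to 0.278. Without ZT0 replicate 4, r was 0.211 for Sqle with Fasn, 0.306 for Sqle with Scd2, 0.229 for Sqle with Srebf2 and 0.212 for Srebf1 with Fasn, and 0.573 to 0.709 for the other 6 pairs. Within time points, r was 0.498 for Srebf2 with Sqle and 0.458 for Srebf1 with Fasn, and 0.222 and 0.119 for Sqle with Fasn and with Scd2. The median r of deviations from time point means was 0.1895 over the 153 pairs of a sterol with a fatty acid enzyme, 0.134 over 136 pairs of sterol enzymes and 0.364 over 36 pairs of fatty acid enzymes. Over all pairs within a group, the mean r of these deviations was 0.166 among sterol enzymes, 0.366 among fatty acid enzymes and 0.142 among oligodendrocyte markers. Among all transcripts it was 0.00927, a mean in which positive and negative r cancel. Without ZT0 replicate 4 these means were 0.2, 0.437, 0.209 and 0.00563. Levels of 1 mouse share an RNA extract and an array, and the part of RNA quality or tissue makeup in these values was not tested.

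Other genes of lipid handling gave small differences as well. Of 20 further sterol genes, for uptake, export, feedback and other steps, 14 were measured and 11 had a higher mean in mid-light, with a median difference of 0.04. In limma 0 of them were called, and 0 passed an unadjusted p under 0.05 (background 3.66% higher and 4.03% lower). The smallest p was that of Mylip (−0.09, standard error 0.05, unadjusted p = 0.0837), a ubiquitin ligase switched on by sterol sensors. Next came Acss2 (0.09), which makes acetyl-CoA from acetate, Npc2 (0.09), which moves cholesterol out of lysosomes, and Abca1 (−0.09), an exporter of cholesterol. The other measured genes of that list had larger p. Of 21 further fatty acid genes, 20 were measured, 12 had a higher mean in mid-light, and the median difference was 0.03. None was called, and 1 (5%) had a higher mean at an unadjusted p under 0.05, near the background of 3.66%. This was Fa2h, which hydroxylates fatty acids of myelin lipids, with a difference of 0.14 (standard error 0.06, unadjusted p = 0.0325, adjusted p = 0.6 from limma). Fa2h ranged from 9.11 to 9.42 (median 9.16) in mid-light mice and from 8.97 to 9.17 (median 9.04) in mid-dark mice. Tecr (0.09) and Slc25a1 (0.12), for chain elongation and the export of citrate from mitochondria, and Cers2 (0.08), a ceramide synthase of long chains, followed.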

How the data were processed

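The authors hybridised total RNA of VTA micropunches to whole-transcript mouse arrays and deposited 1 table of log2 values. They made it with RMA in R 2.13.1, per the labels, a method that corrects for background, makes the arrays' distributions equal and combines the probes of each set. The labels give sampling every 4 h and the methods 6 h, and the labels were followed. No detection call comes with these values, so signal over background is unknown, and levels of different genes were not set against each other. Of 35556 probe sets, 12146 without a gene were left out, 21789 have 1 gene and 1621 several. The other 23410 were tested as transcripts, with symbols updated through the RefSeq gene table of GRCm38.p6.

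The 6 time points were fitted as groups over all 24 arrays with limma 3.58.1 in R 4.3.3, with contrasts of ZT4 and ZT8 against ZT16 and ZT20 and of the separate hours, and a cosine and sine of 24 h in a second fit. CircWave, the tool of the methods, was not run. The Benjamini-Hochberg adjustment ran over all transcripts, with calls at an adjusted p-value under 0.05. Gene lists were described by counts and medians and not tested. All 31 measured members are named by role, with values over the arrays for the 8 with the smallest p, Scd2 (the fatty acid enzyme with the smallest p), Srebf1, Srebf2 and Insig1, and up to 4 genes with the smallest p from each further list. Lss and the mice of single hours were described after their values were seen. The members, lists and pairs were chosen with earlier results of these data known. Correlations were run with scipy 1.17.1.

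Tested on simulated data over 23410 transcripts with 50 changed at each size, the contrast recovered 2% at a log2 difference of 0.15, 68% at 0.3, 90% at 0.5 and 100% at 1, and the rhythm fit recovered 2%, 40%, 86% and 100% at the same peak-to-trough sizes. The true calls in such data make the threshold easier to pass than here. Alternatives were a further quantile normalization, centring on array medians, transcripts above the median level, all probe sets, a robust and trended variance step, array weights, the replicate number as a block, only the 16 arrays compared, time point as a factor, an unmoderated F-test, means in place of medians, all probe sets of a gene, early light against early dark, and leaving out each array in turn.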

Additional observations from a re-analysis of the deposited data

Results flagged for a closer look

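Within the 4 mice of a time point, 1 mouse stood far from the other 3 in 10 of 186 gene and time combinations, in 9 genes, where chance alone gives about 1 in 20. Fasn was at 7.77 in ZT0 replicate 4, where the other 3 mice had 7.45 to 7.47, and Srebf2 at 7.83 in the same mouse, against 7.58 to 7.62. In ZT4 replicate 4, Fasn was at 7.62 (others 7.40 to 7.43), Elovl5 at 8.80 (others 8.60 to 8.62) and Fads1 at 8.33 (others 8.04 to 8.08). Lss was at 7.21 in ZT16 replicate 4 (others 6.82 to 6.88); without that mouse its difference was −0.07, against −0.12 with it. Sc5d was at 8.29 in ZT8 replicate 2 (others 7.93 to 7.97), and Acaca at 8.05 in ZT20 replicate 4 (others 8.24 to 8.28). In ZT12 replicate 2, Mvd was at 6.65 (others 6.77 to 6.78) and Scap at 7.84 (others 7.89 to 7.90). All of these mice carried replicate number 2 or 4, most of them 4. The cause was not tested, nor whether a replicate number marks a batch.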

How the results depend on the processing

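In limma, 0 of the 31 genes were called in the comparison of mid-light with mid-dark, or as rhythmic, under any of the alternatives run or without any 1 array, the lowest adjusted p being 0.196 (array weights). The count of all transcripts called between mid-light and mid-dark, 0 in the reported fit, was 2 after a further quantile normalization, 12 with array weights, 2 with only the 16 arrays compared and 0 to 2 without single arrays. The count of rhythmic transcripts, 7 in the reported fit, was 19 after quantile normalization, 4 over all probe sets, 1 with time point as a factor, and 4 (without ZT0 replicate 1) to 12 (without ZT8 replicate 3) without single arrays. The titles number the replicates without saying that mice of the same number belong together, and the reported fit did not pair them. Over 60 pairs of same-numbered mice, deviations from group means correlated at −0.302 to 0.582 (median 0.0259). Pairs of different numbers were not set beside these, so the values cannot show whether a number marks a batch. With the replicate number as a block, 3 transcripts were called between mid-light and mid-dark and 10 as rhythmic.

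Small differences changed sign: after quantile normalization Scd1 was at −0.0284, Elovl5 at −0.00236, Elovl6 at −0.00198 and Fads2 at −0.0266, and with array weights Pmvk was at −0.027 and Fads2 at −0.0189. Without single arrays the difference ranged from −0.0444 to 0.0122 for Acaca, −0.0247 to 0.105 for Ebp, −0.000924 to 0.056 for Fads1, −0.0226 to 0.0407 for Fads2, −0.0151 to 0.0336 for Fasn, −0.0245 to 0.0241 for Pmvk, −0.00302 to 0.0578 for Sc5d, −0.057 to 0.013 for Srebf1, −0.0282 to 0.0169 for Srebf2 and −0.0477 to 0.0438 for Stard4. Sterol enzymes kept a median of 0.07 to 0.10 and fatty acid enzymes one of 0.01 to 0.06 without single arrays. The early light (ZT0 and ZT4) minus the early dark (ZT12 and ZT16) gave 0.02 for both groups. The cause of these changes was not tested. With 4 mice per time point, differences near 0.15 were seldom recoverable, so the 0 calls do not show that levels were equal.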
